A study of Mus musculus with 15 samples.

Results

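This account describes 10 genes used as marks of bone marrow resident macrophages, namely C1qa, C1qb, C1qc, Cd5l, Apoe, Vcam1, Adgre1, Mrc1, Hmox1 and Spic. They were chosen by symbol and not by a rule on their measured values, though with earlier results of these data known. Each symbol was matched to 1 Ensembl identifier of the gene annotation GENCODE vM21. All 10 were present among the 45706 identifiers of the count table, and 10 of 10 passed the filter on low counts that left 18983 genes for testing.

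The libraries held RNA of lineage-negative (Lin-) bone marrow cells of secondary transplant recipients. These are the immature cells that remain after magnetic removal of cells with markers of mature blood lineages. The study asked how the loss of PUMA, a pro-apoptotic protein, acts on marrow cells that lack telomerase. Donors were CD45.2 C57BL/6J mice, 8 to 12 weeks old, and all recipients were CD45.1 mice irradiated with 9.5 Gy. Each primary recipient received 20000 LSK cells (Lin-, Sca-1+, c-Kit+ stem and progenitor cells), and after 6 weeks 25000 CD45.2+ LSK cells were passed on to secondary recipients, which were killed 16 weeks later or at signs of disease. The 4 groups were named by the genotype of the donor. They were WT (n = 3), Puma-/- (n = 4), G3 mTerc-/-Puma+/+ (n = 4) and G3 mTerc-/-Puma-/- (n = 4). WT and Puma-/- donors kept telomerase, both other groups lacked mTerc, the gene of its RNA component, and G3 denotes mice of the third generation bred without it. Puma-/- was a deletion in the whole donor. The labels name no selection of CD45.2+ cells before RNA extraction, so cells of the irradiated host, which include long-lived macrophages, may have stayed in every library.

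Resident macrophages of the marrow sit among developing blood cells, hold on to erythroblasts and stem cells through adhesion molecules, and clear dying cells and the nuclei that erythroblasts shed. They take up aged red cells and recycle their iron through heme oxygenase. C1q, the recognition unit of the classical complement pathway, is made largely by macrophages, and it also tags dying cells for uptake. The study lists CD11b, a surface marker that many mature myeloid cells share, among its lineage marker antibodies. In bulk RNA, fewer cells of a type and less RNA per cell cannot be told apart.

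Each library held between 102790519 and 158367059 counts, with a median of 112046464. One library, replicate 2 of the group labelled G3 mTerc-/-Puma-/-, stood apart in its cell markers and is missing from the study's heatmaps. It was kept out of the main fit of 14 libraries, and its value is given beside each gene. Bbc3, the gene of PUMA, was at 5.04 to 6.83 CPM (counts scaled to library totals of 1000000) in Puma-/- and at 9.71 to 23.6 CPM in WT, but it was at 13.5 to 17.1 CPM in the 4 libraries labelled G3 mTerc-/-Puma-/-. That label is therefore used here only as a label, and no direction below rests on the loss of Puma in those libraries. Terc was at 0 or 1 count in each of the mTerc-deficient libraries and at 4 to 17 counts in the others. Xist, the RNA that coats the inactive X chromosome, was at 466 to 868 CPM in Puma-/- and at 0.177 to 89.0 CPM in G3 mTerc-/-Puma+/+. Ddx3y, which lies on the Y chromosome, was at most 0.0448 CPM in Puma-/- and at 42.8 to 48.3 CPM in G3 mTerc-/-Puma+/+. These groups did not overlap in either transcript, so genotype and whatever set these levels cannot be told apart between them. The labels do not say that replicates came from separate animals, and p-values then measure only the spread between these samples.

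C1qa, C1qb and C1qc lie side by side on the minus strand of chromosome 4 (GRCm38), within 18675 bases. C1qb spans chr4:136880129-136886187, C1qc spans chr4:136889804-136893065 and C1qa spans chr4:136895917-136898803, with gaps of 3616 and 2851 bases between them. Cd5l lies at chr3:87357881-87371073 on the plus strand and Apoe at chr7:19696109-19699188 on the minus strand. RefSeq gave a promoter for 6 of the 10 genes. The sequence before the start is shown for a pair of the C1q chains, C1qb and C1qc, for Cd5l, whose level moved with theirs, and for Apoe, the gene that passed the test. All 4 are from GRCm38.p6, read 5′ to 3′ along the gene, and hold only bases outside the annotated gene. For C1qc these are 99 of the 250 bases. The windows are chr4:136886201-136886450 (C1qb, minus strand), chr4:136893066-136893164 (C1qc, minus strand), chr3:87357631-87357880 (Cd5l, plus strand) and chr7:19699189-19699438 (Apoe, minus strand). Capitals mark a match, on either strand, to GAGGAA, the core bound by the macrophage factors PU.1 and SPI-C, or to TGACNNNGC, the core of the antioxidant response element.
C1qb: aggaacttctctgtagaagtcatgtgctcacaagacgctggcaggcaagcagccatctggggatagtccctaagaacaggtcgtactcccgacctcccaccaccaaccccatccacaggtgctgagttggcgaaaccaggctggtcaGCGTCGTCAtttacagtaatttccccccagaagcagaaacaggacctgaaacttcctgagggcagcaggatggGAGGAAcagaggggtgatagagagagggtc
C1qc: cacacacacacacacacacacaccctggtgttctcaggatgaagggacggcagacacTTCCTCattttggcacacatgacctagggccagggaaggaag
Cd5l: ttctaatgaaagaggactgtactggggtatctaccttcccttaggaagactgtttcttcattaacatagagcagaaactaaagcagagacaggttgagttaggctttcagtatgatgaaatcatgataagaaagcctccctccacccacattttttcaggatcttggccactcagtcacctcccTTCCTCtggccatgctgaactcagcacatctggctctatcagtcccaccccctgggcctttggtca
Apoe: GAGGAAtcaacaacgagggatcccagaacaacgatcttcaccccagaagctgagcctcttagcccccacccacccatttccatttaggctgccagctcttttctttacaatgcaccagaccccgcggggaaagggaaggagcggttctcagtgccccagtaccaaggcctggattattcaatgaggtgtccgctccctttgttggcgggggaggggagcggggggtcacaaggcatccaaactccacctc
Each of the 4 windows held 1 match to GAGGAA, and C1qb also held 1 to TGACNNNGC. Over 32851 windows of 250 bases from all RefSeq promoters, GAGGAA was found in 23.3% and TGACNNNGC in 10.2%. GAGGAA had 3 matches in Mrc1 and 0 in Spic, and 0 and 1 in the other RefSeq windows of Apoe, which lie inside the gene. A match describes letters in a window and is no measure of binding.

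The levels of the 10 genes differed widely. Per kilobase of exon, the median over 14 libraries was highest for Apoe, at 54.9 CPM per kb, followed by Hmox1 at 12.02 and Vcam1 at 9.20 CPM per kb. Adgre1, C1qb and C1qa lay close together at 5.45, 5.26 and 4.80 CPM per kb, a difference smaller than their spread over libraries. C1qc was at 2.67, Mrc1 at 1.38, Cd5l at 1.13 and Spic at 0.336 CPM per kb. Their spread also differed. Between the lowest and the highest of the 14 libraries, the CPM level differed 25.4-fold for Cd5l, 18.1-fold for C1qb, 16.7-fold for C1qa and for C1qc, and from 1.95-fold (Hmox1) to 5.59-fold (Spic) for the other 6. A single library, replicate 2 of G3 mTerc-/-Puma+/+, had the lowest level of 10 of 10 genes. The smallest count behind any value was 26, for Cd5l in that library.

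**Figure D1:**
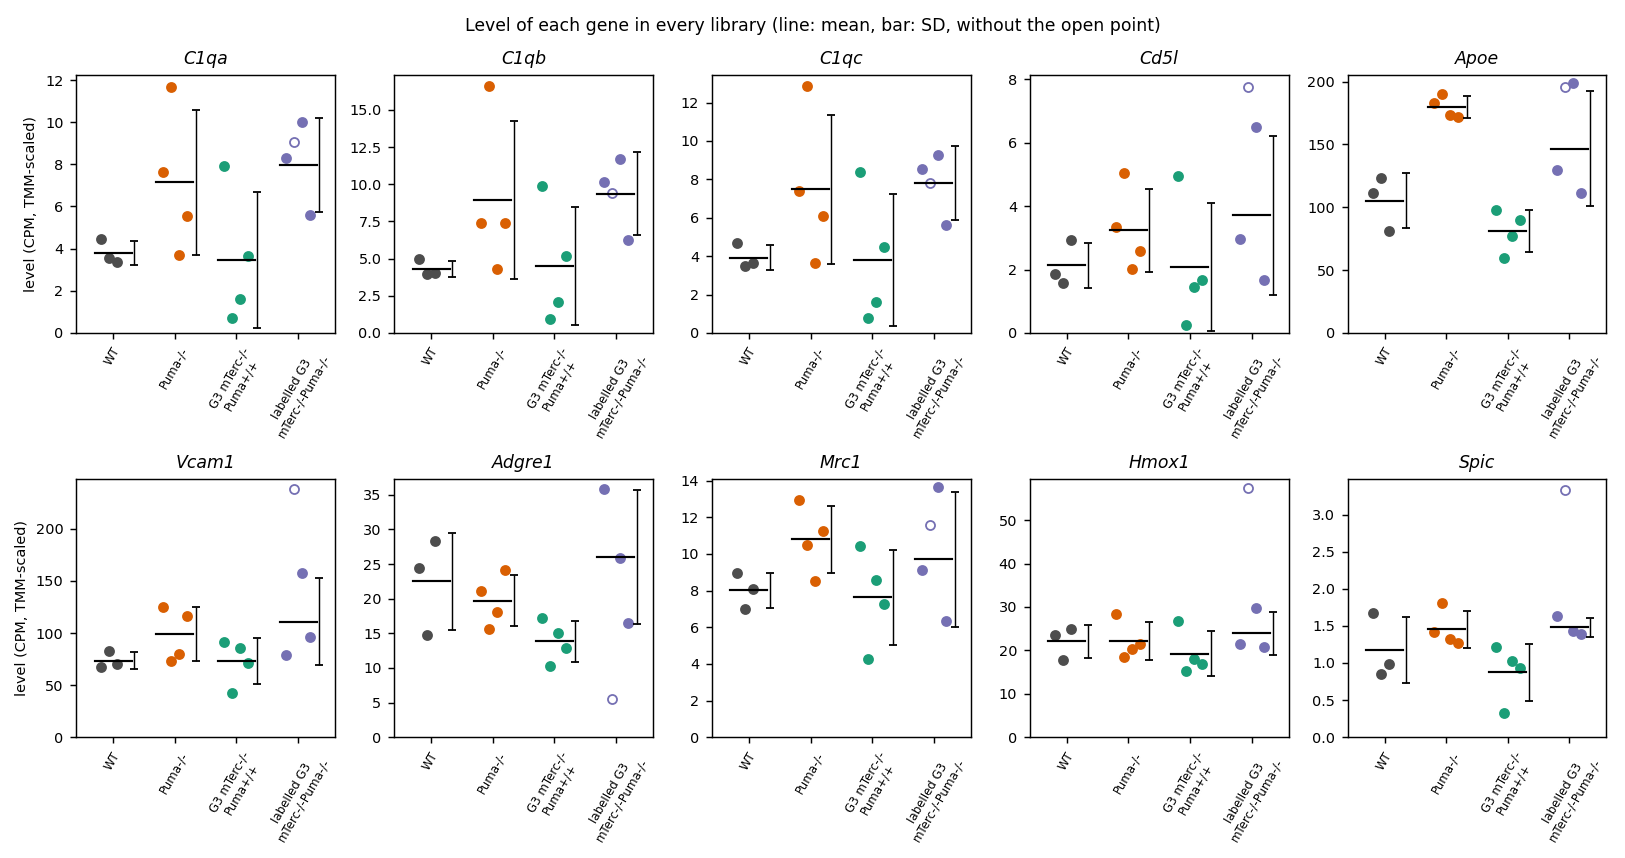
Level of each of the 10 genes in every library, in CPM on a linear axis that starts at 0, by genotype; points are libraries, lines are means, bars are SDs, and the open point is the library outside the main fit. Apoe in the 4 Puma-/- libraries, at 172 to 190.4 CPM, lies above every WT and every G3 mTerc-/-Puma+/+ library, while the C1q genes spread from under 1 CPM to over 10 CPM.

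C1qa, C1qb and C1qc encode the A, B and C chains of C1q, which assemble into 1 molecule. C1qa (ENSMUSG00000036887) was at 4.44, 3.56 and 3.38 CPM in WT, at 7.65, 11.7, 3.68 and 5.53 CPM in Puma-/-, and at 7.91, 0.699, 1.61 and 3.64 CPM in G3 mTerc-/-Puma+/+. In the libraries labelled G3 mTerc-/-Puma-/- it was at 8.30, 10.02 and 5.61 CPM, with 9.08 CPM in the library left out of the fit. WT was tight and low, G3 mTerc-/-Puma+/+ ran from the lowest of all libraries to near the highest, and all 3 of the last group lay above all 3 WT libraries. The means were 3.79 ± 0.572 in WT (SD, n = 3), 7.14 ± 3.44 in Puma-/- (SD, n = 4), 3.46 ± 3.21 in G3 mTerc-/-Puma+/+ (SD, n = 4) and 7.98 ± 2.22 CPM in the labelled G3 mTerc-/-Puma-/- (SD, n = 3). The difference of lowest p was that of the labelled G3 mTerc-/-Puma-/- against G3 mTerc-/-Puma+/+, where the log2 fold change (log2FC) was 1.201 (SE 0.59). It missed the threshold in the quasi-likelihood test of edgeR, with p adjusted over all genes by Benjamini-Hochberg (adjusted p = 0.819). The unadjusted p of that test was 0.0619. Its interval ran from 0.044 to 2.36, but this is a normal interval and narrower than the test allows.

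C1qb (ENSMUSG00000036905) was at 4.94, 3.98 and 3.996 CPM in WT, at 7.39, 16.6, 4.31 and 7.40 CPM in Puma-/-, and at 9.85, 0.916, 2.06 and 5.19 CPM in G3 mTerc-/-Puma+/+. The labelled G3 mTerc-/-Puma-/- libraries were at 10.1, 11.7 and 6.26 CPM, with 9.43 CPM in the one left out. The same libraries were high and low as for C1qa, and Puma-/- replicate 2 was again the highest. C1qc (ENSMUSG00000036896) repeated the pattern, at 3.46 to 4.66 CPM in WT, 3.65 to 12.8 CPM in Puma-/-, 0.768 to 8.39 CPM in G3 mTerc-/-Puma+/+ and 5.63 to 9.25 CPM in the labelled G3 mTerc-/-Puma-/-. For C1qb, the labelled G3 mTerc-/-Puma-/- stood at a log2FC of 1.05 over G3 mTerc-/-Puma+/+ (SE 0.60, edgeR, adjusted p = 0.872). For C1qc the lowest p was that of G3 mTerc-/-Puma+/+ against Puma-/-, with a log2FC of -0.97 (SE 0.56, adjusted p = 0.397 by the same test). The counts of the chains kept close to 1 ratio while their level moved. The count ratio of C1qb to C1qa lay between 0.967 and 1.42 over all 15 libraries, with a median of 1.18, and that of C1qc to C1qa between 0.862 and 1.23, with a median of 1.03. Over the same 15 libraries the C1qa level spanned 16.7-fold.

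Cd5l (ENSMUSG00000015854), which encodes a protein secreted by tissue macrophages that keeps them alive and binds lipids, was at 1.87, 1.57 and 2.94 CPM in WT and at 3.34, 5.03, 2.02 and 2.58 CPM in Puma-/-. It was at 4.96, 0.256, 1.45 and 1.66 CPM in G3 mTerc-/-Puma+/+ and at 2.95, 6.497 and 1.66 CPM in the labelled G3 mTerc-/-Puma-/-, with 7.76 CPM in the library left out. Every genotype overlapped every other, and within G3 mTerc-/-Puma+/+ replicate 1 was high and replicate 2 far below the rest. The lowest p was that of the labelled G3 mTerc-/-Puma-/- against G3 mTerc-/-Puma+/+, with a log2FC of 0.83 (SE 0.68, edgeR, adjusted p = 0.945). Its interval, from -0.50 to 2.15, covered more than a doubling in 1 direction, so a sizeable difference was not detectable with this spread.

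Apoe (ENSMUSG00000002985) encodes apolipoprotein E, which carries cholesterol out of lipid-laden macrophages and into other cells. It was at 112, 123 and 80.7 CPM in WT and at 183, 190.4, 173 and 172 CPM in Puma-/-. It was at 97.5, 59.6, 77.4 and 90.0 CPM in G3 mTerc-/-Puma+/+ and at 129.6, 199 and 112 CPM in the labelled G3 mTerc-/-Puma-/-, with 196 CPM in the library left out. The Puma-/- libraries were uniform and high, above all 3 WT and all 4 G3 mTerc-/-Puma+/+ libraries, and each G3 mTerc-/-Puma+/+ library lay below each labelled G3 mTerc-/-Puma-/- library. In CPM, the means and SDs were 105.2 ± 21.9 for WT (n = 3), 179.7 ± 8.74 for Puma-/- (n = 4), 81.1 ± 16.6 for G3 mTerc-/-Puma+/+ (n = 4) and 147 ± 45.9 for the labelled G3 mTerc-/-Puma-/- (n = 3).

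Apoe was lower in G3 mTerc-/-Puma+/+ than in Puma-/-, with a log2FC of -1.15 (SE 0.19, interval from -1.52 to -0.78), and it passed edgeR's quasi-likelihood test over all genes (adjusted p = 0.0201). It was the only one of the 10 genes to pass in any of the 6 comparisons of 2 genotypes in that test. The call held with all 15 libraries (adjusted p = 0.0393). It was lost without Puma-/- replicates 1, 2 or 4 or without G3 mTerc-/-Puma+/+ replicate 3, each left out in turn. Over all 14 fits that left out 1 library, the log2 fold change stayed between -1.25 and -1.02 and the adjusted p reached 0.0765. The 4 genotypes together also differed in Apoe (adjusted p = 0.0447), a call that all 15 libraries did not give (adjusted p = 0.0573). It was also lost with library size scaling, with the replicate number as a block (adjusted p = 0.142) and with the Xist covariate described next (adjusted p = 0.141), and it held in 5 of the 14 fits that left out 1 library. Against WT, the log2FC of Puma-/- was 0.77 (SE 0.20), and that of the labelled G3 mTerc-/-Puma-/- was 0.48 (SE 0.21). Both had an unadjusted p under 0.05 in edgeR, and neither passed after adjustment (adjusted p = 0.330 and 0.882). Against G3 mTerc-/-Puma+/+, the labelled G3 mTerc-/-Puma-/- had a log2FC of 0.85 (SE 0.20, adjusted p = 0.174 by the same test). DESeq2 called Apoe in the comparison of Puma-/- with WT (adjusted p = 0.0358) and in this one (adjusted p = 0.00768). Over all genes DESeq2 called 137 and 172 in them, where edgeR called 15 and 14.

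The Apoe call coincided with the split in Xist between Puma-/- and G3 mTerc-/-Puma+/+. With the log2 Xist level as a covariate, a fit chosen after seeing the data, the log2FC of Apoe was -1.14 and its adjusted p was 0.121, and over all genes 18 passed in place of 152. Within the group labelled G3 mTerc-/-Puma-/-, which held both kinds of library, Apoe was at 129.6 and 112 CPM in replicates 1 and 4, where Xist was at 663 and 446 CPM. It was at 199 and 196 CPM in replicates 3 and 2, where Xist was at 0.388 and 89.4 CPM. In that group the libraries low in Xist had the higher Apoe, but replicate 2 among them is the library kept out of the main fit. Between Puma-/- and G3 mTerc-/-Puma+/+ the order was the opposite. What set the order within or between groups was not tested. In WT, Apoe was at 80.7 CPM in the library with 1.73 CPM of Xist and at 112 and 123 CPM in those with 418 and 212 CPM.

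**Figure D2:**
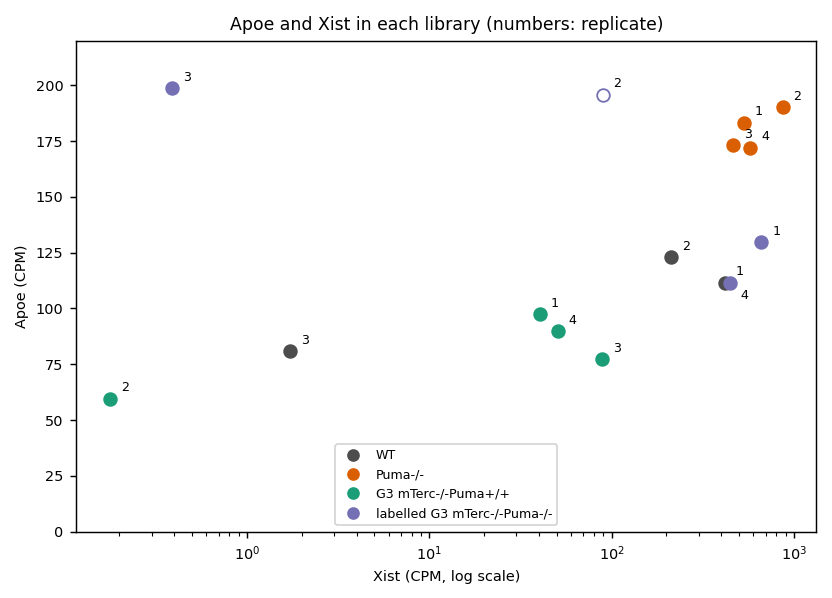
Apoe (CPM, linear axis from 0) against Xist (CPM, log axis) in each of the 15 libraries, coloured by genotype and numbered by replicate. The 4 Puma-/- libraries sit at the upper right with 466 to 868 CPM of Xist, the 4 G3 mTerc-/-Puma+/+ libraries lie lower at 0.177 to 89.0 CPM of Xist, and the labelled G3 mTerc-/-Puma-/- libraries have their highest Apoe, 199 CPM, at 0.388 CPM of Xist.

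Vcam1, Adgre1 and Mrc1 encode surface proteins. VCAM-1 is an adhesion molecule by which macrophages of the erythroblastic island hold erythroblasts, and marrow stromal and endothelial cells carry it too. Vcam1 (ENSMUSG00000027962, chr3:116109949-116129688, minus strand) was at 67.1, 83.2 and 70.6 CPM in WT and at 125, 73.4, 80.1 and 117 CPM in Puma-/-. It was at 91.6, 42.1, 85.8 and 71.6 CPM in G3 mTerc-/-Puma+/+ and at 78.8, 158 and 96.4 CPM in the labelled G3 mTerc-/-Puma-/-, with 238 CPM in the library left out. All genotypes overlapped, and replicate 3 of the labelled G3 mTerc-/-Puma-/- was the highest of the 14. The lowest p was again that of the labelled G3 mTerc-/-Puma-/- against G3 mTerc-/-Puma+/+, with a log2FC of 0.61 (SE 0.28, edgeR, adjusted p = 0.782). Without that replicate it was 0.27, and with all 15 libraries it was 0.97 (adjusted p = 0.322). Of the exon bases of Vcam1, 61 (0.688%) overlap Gm43109 on the opposite strand, and the strand setting of the counting is not given in the sources used here. The other 9 genes share no exon base with an annotated gene.

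Adgre1 (ENSMUSG00000004730, chr17:57358691-57483527, plus strand) encodes F4/80, the classic surface marker of mouse macrophages, which monocytes and eosinophils carry at lower levels. It was at 24.5, 14.8 and 28.3 CPM in WT and at 21.05, 15.6, 18.1 and 24.1 CPM in Puma-/-. It was at 17.2, 10.3, 15.1 and 12.8 CPM in G3 mTerc-/-Puma+/+ and at 35.8, 25.8 and 16.5 CPM in the labelled G3 mTerc-/-Puma-/-, with only 5.51 CPM in the library left out. The G3 mTerc-/-Puma+/+ libraries were low as a group but overlapped each of the others. The log2FC of the labelled G3 mTerc-/-Puma-/- against G3 mTerc-/-Puma+/+ was 0.91 (SE 0.27, edgeR, adjusted p = 0.371), and that of G3 mTerc-/-Puma+/+ against WT was -0.70 (SE 0.27, adjusted p = 0.998). The interaction of the mTerc and Puma labels was 1.10 on the log2 scale (SE 0.38, adjusted p = 0.811). It rests on the group labelled G3 mTerc-/-Puma-/-, where Bbc3 was not low. The library left out ran against the others of its group here. With it, the first of these fold changes was 0.59 and its unadjusted p was over 0.05.

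Mrc1 (ENSMUSG00000026712, chr2:14229392-14332057, plus strand) encodes the mannose receptor CD206, an endocytic receptor of tissue macrophages and sinusoidal endothelium. It was at 8.95, 7.01 and 8.06 CPM in WT and at 12.9, 10.5, 8.50 and 11.2 CPM in Puma-/-. It was at 10.5, 4.29, 8.58 and 7.24 CPM in G3 mTerc-/-Puma+/+ and at 9.12, 13.6 and 6.36 CPM in the labelled G3 mTerc-/-Puma-/-, with 11.6 CPM in the library left out. Puma-/- ran somewhat higher, with overlap throughout. The log2FC of G3 mTerc-/-Puma+/+ against Puma-/-, the comparison of lowest p, was -0.50 (SE 0.26, edgeR, adjusted p = 0.349), and it was -0.29 without G3 mTerc-/-Puma+/+ replicate 2.

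Hmox1 and Spic belong to the handling of heme. HMOX1 breaks heme down to biliverdin, iron and carbon monoxide, and SPI-C is the transcription factor that heme induces and that red pulp and marrow iron-recycling macrophages need. Hmox1 (ENSMUSG00000005413, chr8:75093621-75100589, plus strand) was at 23.5, 17.7 and 25.0 CPM in WT, at 28.3, 18.4, 20.3 and 21.5 CPM in Puma-/-, and at 26.8, 15.2, 18.0 and 16.8 CPM in G3 mTerc-/-Puma+/+. The labelled G3 mTerc-/-Puma-/- libraries were at 21.4, 29.7 and 20.7 CPM, and the library left out was at 57.4 CPM. It was the steadiest of the 10 genes over the 14 libraries, and no genotype stood apart. The largest difference was that of the labelled G3 mTerc-/-Puma-/- against G3 mTerc-/-Puma+/+, at 0.32 on the log2 scale (SE 0.21, edgeR, adjusted p = 0.908). With all 15 libraries it was 0.75 (SE 0.29, unadjusted p = 0.022, adjusted p = 0.396 by the same test). Over the 14 libraries, the intervals of the other 5 comparisons of Hmox1 lay within -0.61 and 0.56.

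Spic (ENSMUSG00000004359, chr10:88674772-88685015, minus strand) was the lowest of the 10 per kilobase. It was at 1.68, 0.857 and 0.983 CPM in WT and at 1.41, 1.81, 1.32 and 1.27 CPM in Puma-/-. It was at 1.21, 0.325, 1.03 and 0.934 CPM in G3 mTerc-/-Puma+/+ and at 1.63, 1.43 and 1.39 CPM in the labelled G3 mTerc-/-Puma-/-, with 3.33 CPM in the library left out. All 4 G3 mTerc-/-Puma+/+ libraries lay below all Puma-/- and all labelled G3 mTerc-/-Puma-/- libraries, by a small margin at the top. The log2FC of G3 mTerc-/-Puma+/+ was -0.73 against Puma-/- (SE 0.33, edgeR, adjusted p = 0.276). The labelled G3 mTerc-/-Puma-/- had a log2FC of 0.76 against G3 mTerc-/-Puma+/+ (SE 0.35, adjusted p = 0.792). Without G3 mTerc-/-Puma+/+ replicate 2 these values were -0.45 and 0.48.

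Counted by comparison, the 10 genes gave few calls. In G3 mTerc-/-Puma+/+ against Puma-/-, 1 of 10 passed at an adjusted p under 0.05 (Apoe), beside 0.801% of all 18983 genes tested, and 2 of 10 (Apoe and Spic) had an unadjusted p under 0.05, beside 17.1% of all genes. All 10 had a negative log2 fold change, with a median of -0.68, while the median of all genes was near 0. In the labelled G3 mTerc-/-Puma-/- against G3 mTerc-/-Puma+/+, edgeR called 0 of 10, beside 0.0738% of all genes, and 4 of 10 (Apoe, Vcam1, Adgre1 and Spic) had an unadjusted p under 0.05, beside 6.22%. DESeq2 called 1, beside 0.908% of all genes, and limma-voom 0. All 10 fold changes were positive, and their median was 0.84. These comparisons share the G3 mTerc-/-Puma+/+ libraries, and with them replicate 2, the lowest library for every gene.

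Against WT, edgeR called 0 of 10 genes in each comparison. For Puma-/- the background was 0.079% of all genes, 1 of 10 (Apoe) had an unadjusted p under 0.05 (10.1% of all genes), 9 fold changes were positive and the median was 0.52. For G3 mTerc-/-Puma+/+ the background was 0.0369%, 1 of 10 (Adgre1) had an unadjusted p under 0.05 (3.86% of all genes), 1 fold change was positive and the median was -0.098. For the labelled G3 mTerc-/-Puma-/- the background was 0.0632%, 1 of 10 (Apoe) had an unadjusted p under 0.05 (5.45% of all genes), 10 fold changes were positive and the median was 0.54. DESeq2 called 1, 0 and 0 in these 3 comparisons, beside 0.767%, 0.243% and 0.47% of all genes, and limma-voom called 0 in each.

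Between the labelled G3 mTerc-/-Puma-/- and Puma-/-, the groups of higher levels, edgeR, DESeq2 and limma-voom each called 0 of 10 genes, beside 0.306% of all genes in edgeR. None had an unadjusted p under 0.05, beside 8.42%, and 8 fold changes were positive with a median of 0.091. The interaction of the mTerc and Puma labels gave 0 calls by each of the 3 tools (0.0527% of all genes in edgeR) and 1 of 10 at an unadjusted p under 0.05 (4.93%), which was Adgre1. The test of any difference among the 4 genotypes called 1 of 10, Apoe, beside 0.448% of all genes, and gave 2 of 10 with an unadjusted p under 0.05, beside 11.4%. Exact two-sided permutation tests of each gene in each pair of genotypes, 60 in all, gave an unadjusted p of 0.0286 in 4 cases and no adjusted p under 0.429. They were run on the 10 genes alone, so no share over all genes stands beside the 4. With 4 libraries against 4 or 3 an exact p cannot go under 0.0286, and with 3 against 3 not under 0.1.

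**Figure D3:**
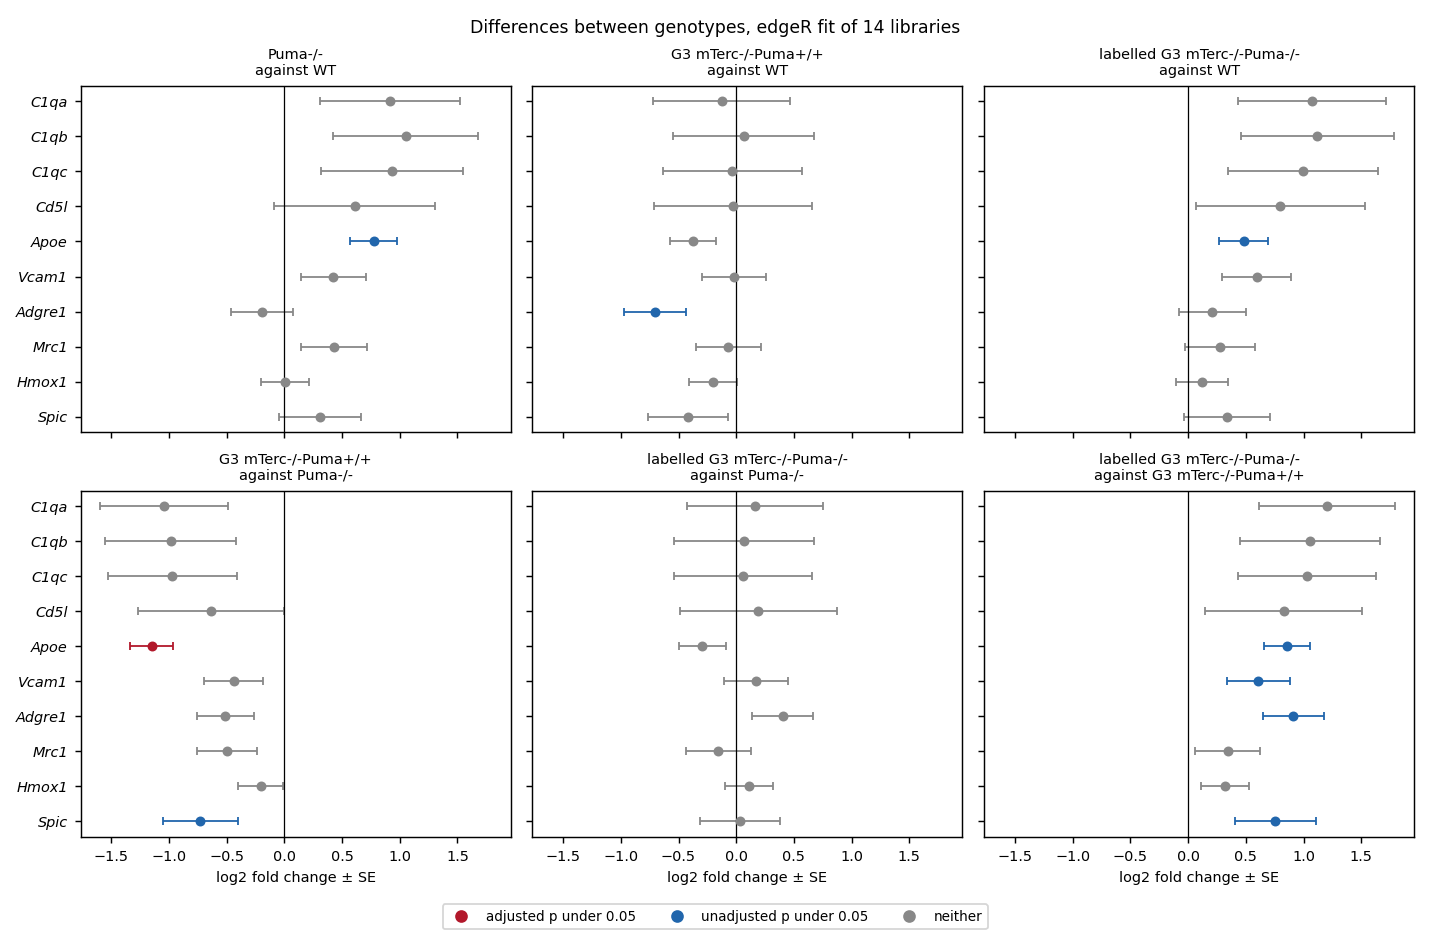
Log2 fold change of each of the 10 genes in the 6 comparisons of 2 genotypes, from the edgeR fit of 14 libraries. Bars are SEs, not intervals, and the legend gives the marks for p-values. All 10 points lie below 0 in G3 mTerc-/-Puma+/+ against Puma-/- and above 0 in the labelled G3 mTerc-/-Puma-/- against G3 mTerc-/-Puma+/+, and Apoe in the first of these is the one value past the adjusted threshold.

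These counts moved with single libraries of G3 mTerc-/-Puma+/+. Replicate 1 of that group was above the mean of the 14 libraries in 8 of 10 genes, and replicate 2 was below it in 10 of 10. Without replicate 1, 9 of 10 genes had an unadjusted p under 0.05 both against Puma-/- and against the labelled G3 mTerc-/-Puma-/-, and the number past the adjusted threshold in edgeR stayed at 1 and 0. Of all genes, 19.4% and 9.88% had an unadjusted p under 0.05 in that fit. Without replicate 2, those numbers for the 10 genes were 1 and 2, beside 12.9% and 6.59% of all genes, the medians were -0.41 and 0.58, and the median against WT was 0.15 in place of -0.098. The summed level of the 10 genes was 134.5 CPM in replicate 2 and 276 CPM in replicate 1, against 228 to 259 CPM in WT and 315 to 398 CPM in Puma-/-.

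Other genes of the same cells and functions were described as lists. Of 25 further genes known from resident and erythroblastic island macrophages, 24 were tested. Some of the defining ones were close to absent: Timd4, Vsig4, Marco, Folr2 and Lyve1, receptors of tissue-resident macrophages, stayed under 1 CPM in every library, with maxima from 0.188 to 0.408 CPM over the 14 libraries and up to 0.577 CPM (Folr2) in the one left out. Siglec1, the sialic acid receptor CD169, was at 0.226 to 3.01 CPM over the 14 and at 4.26 CPM in the one left out. By contrast, 5 genes of wider expression (Csf1r, Mpeg1, Cd68, Selenop and Lgmn) were over 10 CPM in every library. Other receptors of the list were present over the 14 libraries. Cd163 was at 9.61 to 22.6 CPM, Axl at 6.81 to 19.1 CPM and Fcgr1 at 4.19 to 13.8 CPM. Itgad was at 1.43 to 10.2 CPM, Stab1 at 1.67 to 6.80 CPM and Mertk at 0.620 to 2.16 CPM. The libraries thus held transcripts of the 10 genes and of some macrophage receptors, beside little or none of others.

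edgeR called 0 of the 24 genes in each comparison of 2 genotypes. DESeq2, which called 5.99% of all genes in G3 mTerc-/-Puma+/+ against Puma-/-, called 3 of them there and 1 in the labelled G3 mTerc-/-Puma-/- against G3 mTerc-/-Puma+/+, and limma-voom called 0 throughout. In the first of these, 7 had an unadjusted p under 0.05, beside 17.1% of all genes, all lower, and the median log2 fold change was -0.48. In the second, 4 did, beside 6.22%, all higher, with a median of 0.37. Pltp, the phospholipid transfer protein of lipoprotein exchange, had log2 fold changes of -1.34 (SE 0.36, adjusted p = 0.0853) and 1.93 (SE 0.38, adjusted p = 0.0883) in these comparisons. Trf, which encodes the iron carrier transferrin, was at -0.69 (SE 0.19) in the first and did not pass. Against WT, the numbers with an unadjusted p under 0.05 were 0 for Puma-/-, 0 for G3 mTerc-/-Puma+/+ and 4 for the labelled G3 mTerc-/-Puma-/-.

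The 14 further genes of heme and iron handling gave 0 calls by edgeR, DESeq2 and limma-voom in every comparison of 2 genotypes. Their medians lay between -0.026 and 0.14, and at most 2 had an unadjusted p under 0.05. Slc40a1, the iron exporter ferroportin, had a log2FC of 0.57 (SE 0.25, adjusted p = 0.885) in the labelled G3 mTerc-/-Puma-/- against WT. Slc11a1, an ion transporter of the phagosome, had one of 1.04 (SE 0.35, adjusted p = 0.494) against G3 mTerc-/-Puma+/+.

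Of 16 complement genes outside C1q, edgeR and limma-voom called 0 in each comparison, and DESeq2 called 1 in each comparison with G3 mTerc-/-Puma+/+ other than that with WT. C1s1 and C1ra encode the proteases that join C1q in the C1 complex. C1s1 had a log2FC of -1.04 in G3 mTerc-/-Puma+/+ against Puma-/- (SE 0.36, adjusted p = 0.169) and of 1.14 in Puma-/- against WT (SE 0.40, adjusted p = 0.412). C1ra had one of -0.41 in the first (SE 0.17, adjusted p = 0.233). The median over the 16 genes was -0.44 in G3 mTerc-/-Puma+/+ against Puma-/-, where 4 had an unadjusted p under 0.05, beside 17.1% of all genes, all lower. It was 0.46 in the labelled G3 mTerc-/-Puma-/- against G3 mTerc-/-Puma+/+, where 5 did, beside 6.22%, all higher.

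Among 24 genes for the uptake of dying cells and the lipid handling that follows, edgeR and limma-voom called 1 and DESeq2 2 in G3 mTerc-/-Puma+/+ against Puma-/-. The gene that edgeR called was Itgb3, an integrin of both phagocytes and megakaryocytes, with a log2FC of -0.92 (SE 0.19, adjusted p = 0.0491), and it did not pass with all 15 libraries (adjusted p = 0.0862). In the labelled G3 mTerc-/-Puma-/- against Puma-/- its log2FC was -1.06 (SE 0.21, adjusted p = 0.0575), and it was -1.13 with all 15 libraries, where it passed (adjusted p = 0.0215). The summed level of 6 megakaryocyte markers was 163 to 229 CPM in G3 mTerc-/-Puma+/+ and 337 to 558 CPM in Puma-/-, and its part in the Itgb3 result was not tested. The median of the list was -0.35 there, 8 of 24 had an unadjusted p under 0.05, beside 17.1% of all genes, all lower, and in the labelled G3 mTerc-/-Puma-/- against G3 mTerc-/-Puma+/+ the median was 0.37.

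The 10 genes moved together over libraries. All 45 pairs had a positive Pearson correlation of log2 CPM over the 14 libraries, from 0.424 to 0.996 with a median of 0.72, and 41 of 45 passed at an adjusted p under 0.05 (100000 permutations, Benjamini-Hochberg over 45 pairs). The points share their library, so depth and cell content enter both axes. After removing the genotype means, the median was 0.66. The 3 pairs of C1q chains stood out at 0.990 to 0.996, and at 0.988 to 0.995 within genotypes. C1qa and Cd5l had r = 0.912 and a Spearman rho of 0.859 (permutation p = 2e-05 and 0.00024, adjusted p = 0.000225 and 0.0018), and r was 0.811 without the 2 libraries farthest from the median. Apoe and Adgre1 had the weakest relation, at r = 0.424 and rho = 0.420 (permutation p = 0.133 and 0.139).

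Most of these relations rested on few libraries. Without the 2 libraries farthest from the median of the gene on the x axis, 7 of 45 pairs passed. Without G3 mTerc-/-Puma+/+ replicate 2 alone, a set chosen after seeing the data, 14 of 45 passed, all 45 remained positive and the median was 0.55. The C1q pairs kept r of at least 0.971 without the 2 farthest libraries. With the library outside the main fit added, Adgre1 and Hmox1 had r = -0.254 in place of 0.692.

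**Figure D4:**
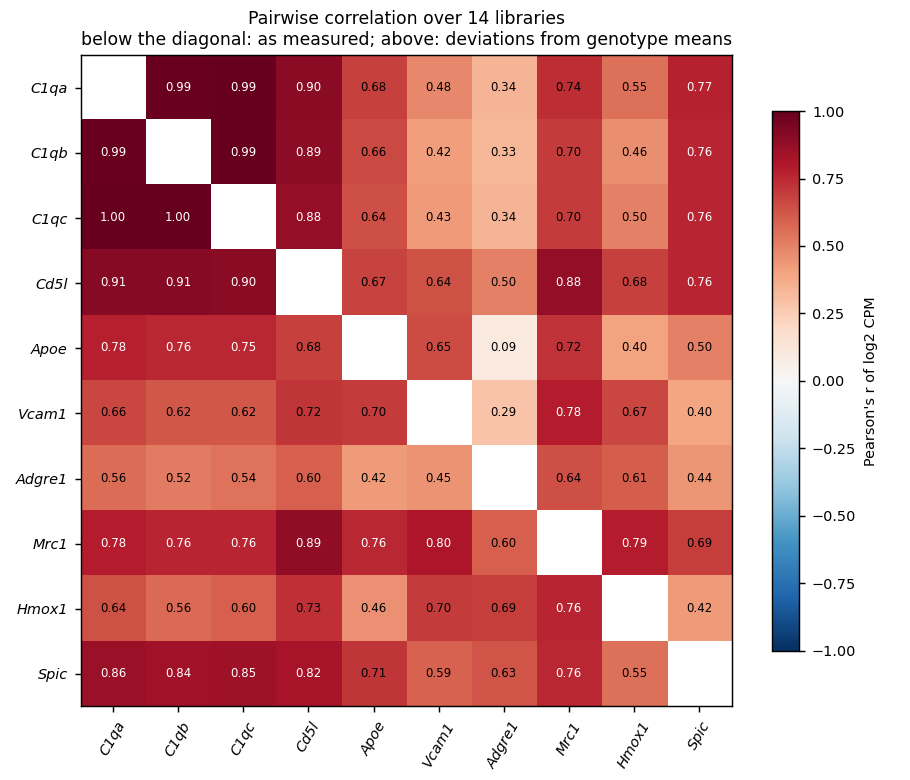
Pearson correlation of log2 CPM for each pair of the 10 genes over 14 libraries (colour scale), as measured below the diagonal and for deviations from genotype means above it. The C1q chains form a block near 1 on both sides, and the pairs of Adgre1 with Apoe (0.42) and with Vcam1 (0.45) are the lowest.

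Cell markers moved with the genes as well. The relations of the 10 genes with 6 marker lists, 60 in all, were computed after seeing the data, over 14 libraries with 100000 permutations and Benjamini-Hochberg adjustment. The further macrophage genes correlated with 10 of 10 genes, with r from 0.695 (Adgre1) to 0.915 (C1qa), and 4 of 10 still passed without the 2 farthest libraries. C1qa with this list had rho = 0.842 (permutation p = 1e-05 for r, the smallest they can give, and 0.00026 for rho, adjusted p = 4e-04 and 0.0026), and r = 0.787 without those libraries. Endothelial markers correlated with 8 of 10 genes, most with Apoe at r = 0.883 and rho = 0.881 (permutation p = 3e-05 and 1e-04, adjusted p = 0.00045 and 0.0015) and least with Adgre1 at 0.201. Apoe kept r = 0.842 without the 2 farthest libraries and 0.879 within genotypes. Without those libraries, Apoe, Vcam1 and Mrc1 still passed with endothelial markers (adjusted p = 0.0183, 0.032 and 0.032, permutation). The C1q genes, Cd5l and Spic did not, with an adjusted p from 0.107 to 0.149 in the same test.

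Stromal markers correlated with Vcam1, Mrc1 and Hmox1, at r = 0.748, 0.722 and 0.664. For Vcam1, rho was 0.688 (permutation p = 0.00127 and 0.00789, adjusted p = 0.0068 and 0.0347), and without the 2 farthest libraries r was 0.487 and no longer passed (adjusted p = 0.234, permutation). Monocyte markers correlated only with Adgre1 among the 10 genes, at r = 0.667 and rho = 0.675 (permutation p = 0.00927 and 0.00956, adjusted p = 0.0262 and 0.0358), and at r = 0.904 within genotypes. Without the 2 farthest libraries this r was 0.456 and no longer passed (adjusted p = 0.261, permutation). Neutrophil and erythroblast markers correlated with 0 of 10 genes. Csf1r is in both the macrophage and the monocyte list.

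**Figure D5:**
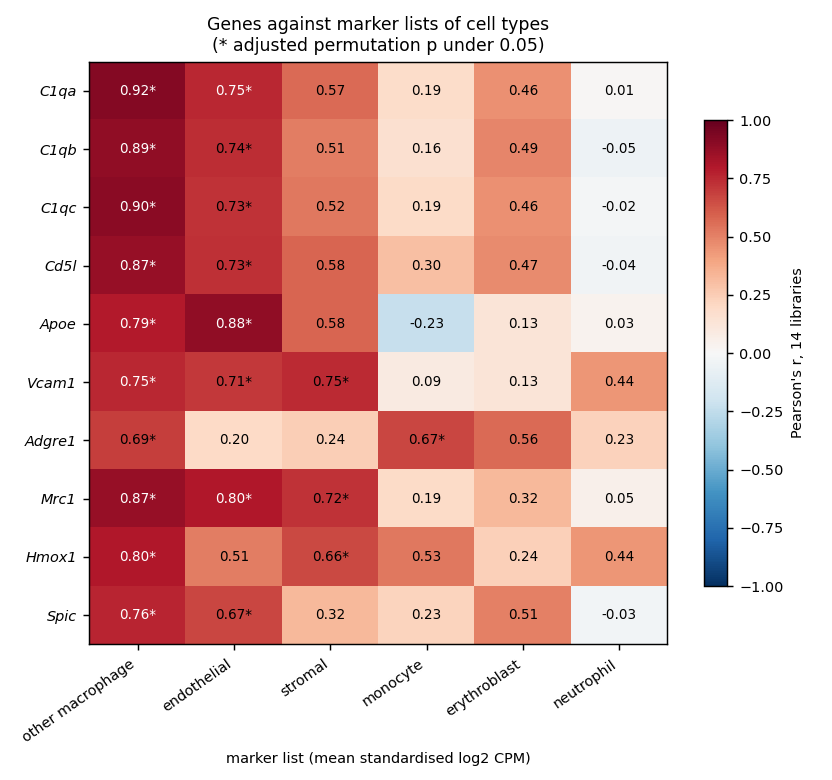
Pearson correlation between each of the 10 genes and the mean level of 6 lists of cell markers over 14 libraries (colour scale; stars mark an adjusted permutation p under 0.05). The column of further macrophage genes is starred for all 10, endothelial markers for 8, and Adgre1 differs from the others by its r of 0.667 with monocyte markers.

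Several of the 13 cell marker lists also separated the genotypes in which Apoe was called. In summed CPM, 5 lists lay lower in all G3 mTerc-/-Puma+/+ than in all Puma-/- libraries. These were dendritic cell markers (133 to 381 against 389 to 448 CPM), endothelial markers (25.1 to 36.9 against 38.3 to 52.1 CPM) and B cell markers (36.9 to 50.01 against 63.6 to 72.4 CPM). Megakaryocyte markers (163 to 229 against 337 to 558 CPM) and mast cell and basophil markers (1329 to 2417 against 2540 to 4055 CPM) made up the 5. The summed level of the further macrophage genes did not separate them, at 896 to 1574 against 1213 to 1454 CPM. Over the 14 libraries that sum was led by Mpeg1, at 428 to 993 CPM, and Csf1r, at 239 to 403 CPM, whereas over the 24 genes tested, counted singly, 2 fold changes were positive and the median was -0.48. The part of these markers in the Apoe result was not tested. Of the 13 lists, 4 (dendritic cell, endothelial, B cell and megakaryocyte markers) also lay above WT in all Puma-/- libraries.

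The genes whose pattern was most like that of the 10 were ranked by Pearson correlation with the mean of their standardised log2 levels over 14 libraries, out of 18876 genes, as a description. Fbxo32 led with r = 0.947, followed by Dpep2 (0.938), Nxpe4 (0.933), Rgl1 (0.925) and Evl (0.924). Gm11613 (0.922), Vnn3 (0.916), Lilra5 (0.914), Kcna2 (0.912) and Kcnj10 (0.911) completed the first 10. Fbxo32 encodes a ubiquitin ligase subunit known from muscle, Dpep2 a dipeptidase and Evl a regulator of actin. With the library outside the fit added, r was 0.928 for Fbxo32 and 0.943 for Nxpe4 but 0.138 for Dpep2 and 0.657 for Evl.

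In the library left out, replicate 2 of the labelled G3 mTerc-/-Puma-/-, 9 of the 10 genes lay above every WT library. Each of its monocyte markers but Ly6c2 lay below the other 14 libraries. Ly6c2 was at 887 CPM in it and at 710 to 1604 CPM in the others. How many of all genes lay above every WT library there was not counted. Its summed level of the 10 genes was 546 CPM, above the 134.5 to 464 CPM of the other 14. Csf1r, the receptor for the growth factor of monocytes and macrophages, was at 26.0 CPM there and at 239 to 403 CPM in the others, the further macrophage list summed to 378 CPM against 896 to 1693 CPM, and monocyte markers to 1143 CPM against 2324 to 4634 CPM. Erythroblast markers were at 1327 CPM against 180 to 363 CPM, and endothelial markers at 72.2 CPM against 25.1 to 55.8 CPM. Adgre1 was the 1 gene of the 10 that lay below all other libraries.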

How the data were processed

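The authors prepared stranded poly(A)-selected libraries, trimmed reads with Trimmomatic 0.38 and quantified reads per gene with STAR 2.5.2b on GRCm38 (mm10). The annotation release and the strand setting are not given in the sources used here. The deposited values were raw read counts per gene, not normalized, for 15 libraries, each matched to its group through its labels.

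Of 45706 identifiers, 45143 matched GENCODE vM21. Levels are CPM, counts per 1000000 of totals scaled by TMM (factors 0.921 to 1.07). The main test was the quasi-likelihood test of edgeR 4.0.16 (R 4.3.3) with TMM and filterByExpr, on 4 genotypes in 1 fit of 14 libraries, with Benjamini-Hochberg adjustment over 18983 genes at 0.05. This departs from the limma fit of the study because the values were counts. Intervals are 95% (normal). Log2 CPM used a prior count of 2. Correlations used 100000 permutations. Alternatives were all 15 libraries, library size scaling, DESeq2 1.42.0, limma-voom (limma 3.58.1), other filters, the replicate number as a block, each comparison alone, and each library left out. The scripts were tested on simulated counts.

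The 10 genes, the lists and the tests were chosen with earlier results of these data known. All 10 are named. Fold changes are printed for each gene's comparison of lowest p and for each with an unadjusted p under 0.05. From each list, genes past the adjusted threshold or up to 4 of lowest p could be named. Counting depth limited Cd5l and Spic most. Promoters were read from RefSeq (GRCm38.p6). No sequence of the proteins, and no result of 1 further motif searched, is reported here.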

Additional observations from a re-analysis of the deposited data

Results flagged for a closer look

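In replicate 2 of the labelled G3 mTerc-/-Puma-/-, Spic was at 3.33 CPM, while the other 3 libraries of its group lay between 1.39 and 1.63 CPM, a gap of 0.875 of the group's whole range, above Dixon's 95% critical value for 4 samples. It was the 1 outlier in 30 tests of a gene in a group of 4, and chance gives about 1 in 20.

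The same library took no part in the main fit. In it, 9 genes lay above every WT library, namely C1qa at 9.08, C1qb at 9.43, C1qc at 7.82, Apoe at 196, Vcam1 at 238, Cd5l at 7.76, Hmox1 at 57.4, Spic at 3.33 and Mrc1 at 11.6 CPM. The highest WT values of C1qa and Hmox1 were 4.44 and 25.0 CPM. The share of all genes above every WT library was not counted, so the 9 cannot be read as particular to these genes. Neutrophil markers summed to 4531 CPM there and to 354 to 3476 CPM in the other 14 libraries, and plasma cell markers to 2338 against 496 to 1684 CPM. Their part in these levels was not tested.

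No interaction of the mTerc and Puma labels passed for any of the 10 genes in edgeR, DESeq2 or limma-voom. In edgeR, 1 of 10 had an unadjusted p under 0.05.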

How the results depend on the processing

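Of 367 values of 16 named fold changes under alternatives, 359 kept their direction and their side of the threshold, 6 lost and 2 gained it, and 0 reversed. The test of any difference among the 4 genotypes called 0 of the 10 genes in place of 1 with all 15 libraries, with library size scaling alone and with the log2 Xist level as a covariate, which was added after seeing the data. With that covariate the comparison of G3 mTerc-/-Puma+/+ with Puma-/- also called 0 in place of 1. DESeq2 called 1 in place of 0, Apoe, in Puma-/- against WT and in the labelled G3 mTerc-/-Puma-/- against G3 mTerc-/-Puma+/+. With each library left out in turn, the number called ranged from 0 to 1 in G3 mTerc-/-Puma+/+ against Puma-/- and in the test of any difference, which called Apoe in 5 of 14 fits. Over all its 22 alternatives, that test kept its Apoe call in 9. The correlations that passed fell from 41 to 7 without the 2 farthest libraries and to 14 without the lowest library. The cause of these changes was not tested.

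The median fold change of the 10 genes reversed in 5 fits with 1 library left out. For the labelled G3 mTerc-/-Puma-/- against Puma-/- it was -0.029 without Puma-/- replicate 3 and -0.10 without replicate 3 of the first group, for G3 mTerc-/-Puma+/+ against WT it was 0.15 without its replicate 2, and for the interaction it was -0.042 without that library and -0.10 without replicate 3 of the labelled G3 mTerc-/-Puma-/-. Over the fits with 1 library left out, these medians ranged from -0.10 to 0.25, from -0.65 to 0.15 and from -0.10 to 0.70. Over all genes, 152 were called in G3 mTerc-/-Puma+/+ against Puma-/-, 24 with all 15 libraries, 1004 with DESeq2 and 18 to 228 with 1 library left out.

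Samples of different genotypes share replicate numbers, but of 18 correlations between same-numbered samples only 3 were over 0.1 (from -0.25 to 0.18), so the numbers were not taken as pairs. With the replicate number as a block, 0 of the 10 genes were called in G3 mTerc-/-Puma+/+ against Puma-/- (Apoe -1.15, adjusted p = 0.0630) and 0 in the test of any difference, and 43 of all genes were called in the first. The block changed no other call of the 10 genes. Depth limited only the lowest values, 26 counts for Cd5l and 33 for Spic, and with 3 or 4 libraries a group the spread between libraries limited the rest.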
